A study of Mus musculus with 6 samples.

Results

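The paired receptors of mouse myeloid cells were described in bone marrow-derived macrophages that met cancer cell-conditioned medium with or without its lipids. The members were all protein-coding genes whose symbol in the GENCODE M21 annotation of GRCm38 starts with Pilra, Pilrb, Cd300, Lilr, Pira, Pirb, Siglec, Cd200r, Sirpa or Sirpb, plus Cd22 and Cd33. The annotation holds 37 such genes among the 46603 gene rows of each count table, and 35 of them have a row. Lilr4b and Lilrb4a have no row under their M21 identifiers and were not analysed here. A filter of 10 or more counts in at least 3 of the 6 libraries left 29 members for testing.

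All 6 libraries came from marrow of C57BL/6/J mice aged 7 weeks, grown with 20% medium from L929 cells, a fibroblast line that secretes macrophage growth factor. Cells were detached at day 6, seeded at 800000 per well and stimulated 6 h later. In 3 libraries (CM in the labels) the conditioned medium held lipids, and in the other 3 (CM w.o. Lipids) it lacked them. No library was left without conditioned medium, so each difference below is between those media. Which cancer cells were used, how lipids were removed and how long the exposure lasted: not given in the sources used here. Likewise, no source says whether a replicate is its own mouse or culture, so the p-values below rest on a spread between libraries that may be technical.

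Libraries held 19429022 to 25323053 counts. Defining macrophage transcripts were abundant in both groups, with Csf1r at 3032 and 2850 counts per 1000000 (CPM) and Adgre1, which encodes F4/80, at 2968 and 2651 CPM, with and without lipids. Of the 10 macrophage markers, 3 were higher with lipids (Itgam 0.56, Fcgr1 0.29 and Cd163 0.88 log2) and Cd68 was lower at -0.55, by the edgeR test described below. Replicate 1 without lipids stood apart on the second principal component, at -23.5 where the other 5 libraries lay between -1.09 and 14.1. Without it, all 10 members called below kept their call, and Cd300c2 and Cd33 passed as lower too. Across all 12886 genes tested with edgeR's quasi-likelihood test, 583 were higher and 875 lower with lipids at an adjusted p of 0.05, or 11.3% in all.

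Paired receptors are surface proteins of shared ancestry in which some members inhibit and others activate the same cell. Most inhibitory partners carry tyrosine motifs (ITIMs) in the tail that recruit the phosphatases SHP-1, SHP-2 or SHIP-1. The activating partner has a short tail and signals through the adaptors DAP12 or the Fc receptor gamma chain, which engage the kinase Syk. Their ligands are sialic acids for the Siglecs and PILRs, MHC class I for the PIRs, CD200 and CD47 for CD200R1 and SIRP alpha, and membrane lipids such as phosphatidylserine for several CD300 proteins.

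The sequences shown are the upstream regions of the 3 PILR genes, because these 3 neighbours were all higher with lipids. They lie on the minus strand of chromosome 5 in GRCm38.p6, and come from the RefSeq promoter table, trimmed to the 193 bases that the genes share and that no annotated exon of the same gene covers. The Pilra block (chr5:137836282-137836474) ends 4 bases before the gene's RefSeq start, and the Pilrb1 block (chr5:137858107-137858299) and Pilrb2 block (chr5:137871816-137872008) end 58 bases before theirs. Capitals mark a match to the C/EBP motif TTGCNNAA, searched on both strands.
Pilra: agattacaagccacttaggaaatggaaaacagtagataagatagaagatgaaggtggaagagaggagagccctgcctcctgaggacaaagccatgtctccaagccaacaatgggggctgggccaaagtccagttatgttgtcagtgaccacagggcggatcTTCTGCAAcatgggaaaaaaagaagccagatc
Pilrb1: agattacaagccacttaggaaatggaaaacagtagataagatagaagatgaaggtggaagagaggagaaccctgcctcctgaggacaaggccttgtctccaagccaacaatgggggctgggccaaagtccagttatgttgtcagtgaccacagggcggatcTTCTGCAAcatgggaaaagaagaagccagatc
Pilrb2: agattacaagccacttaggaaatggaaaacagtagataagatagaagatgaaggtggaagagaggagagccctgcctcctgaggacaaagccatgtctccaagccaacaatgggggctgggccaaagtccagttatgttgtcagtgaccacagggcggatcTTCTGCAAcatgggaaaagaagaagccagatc

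Counting positions from 1 at the 5′ end of the block, Pilra and Pilrb2 differed by the single substitution A180G (Pilra base first), an identity of 99.5%. Pilra and Pilrb1 were identical at 97.9% of bases, and Pilrb1 and Pilrb2 at 98.4%, with A69G, G89A and T93A (Pilrb1 base first). The C/EBP match occupied bases 162 to 169 of the block in all 3 genes. In the 250 bases before the start, that motif occurred in 9.56% of 32851 RefSeq promoters and in 8 of the 30 members that had one. GAGGAA, the core recognised by the myeloid factor PU.1, occurred in 18 of these 30 members and in 23.3% of all promoters, and the AP-1 motif TGANTCA in 0 of 30 and 6.75%. CACGTG, the E-box bound by MiT/TFE factors, was found in Cd300ld4, Cd300ld5 and Siglech, and in 6.02% of all promoters. Motifs were searched on both strands, and a match describes the letters only. Several members are gene copies with nearly the same upstream letters, such as the PILR genes and Cd300ld4 with Cd300ld5. The member counts are therefore not independent.

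Per kilobase of merged exon, which adjusts for gene length but not for reads that could fit several genes, the order was led by Sirpa at 637 CPM per kb with lipids and 759 without. Cd300c2 followed at 230 and 255 CPM per kb. Cd300lb (175 and 175) and Pirb (167 and 180) came next and could not be separated, since their libraries overlapped in both groups. Of the 75-base windows of the longest coding transcript, 30.1% occur in other genes for Pirb and 0.0% for Cd300lb. The level of Pirb is therefore less certain. Cd300ld (80.2 and 64.5 CPM per kb) lay above Cd200r1 (53.3 and 60.4), but the libraries of Cd200r1 without lipids reached 63.7, within the span of Cd300ld there (62.3 to 67.4). At the other end, Cd22 was at 0.411 and 1.27 CPM per kb, Lilra5 at 0.295 and 0.227, and Siglecf at 0.262 and 0.189. Sirpa alone supplied 53.7% to 54.0% of all CPM of the 35 members with lipids and 55.8% to 57.8% without.

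**Figure D1:**
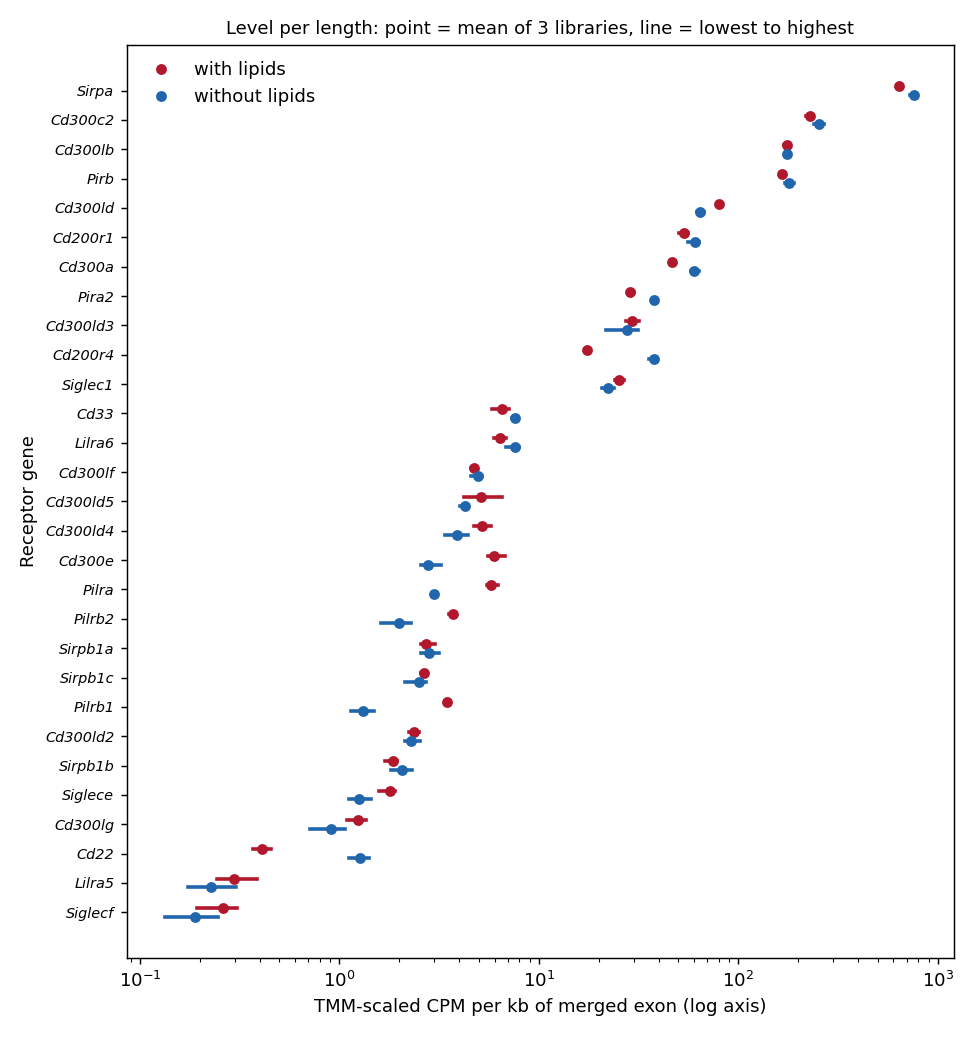
Level of each tested receptor gene in CPM per kilobase of merged exon, on a log axis, with the mean of 3 libraries as a point and the lowest to highest library as a line, for each medium. Sirpa stands at the top at 637 and 759 CPM per kb, and the medium separates the points most for Cd22, Pilrb1, Cd200r4, Cd300e and Pilra.

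Of the 29 tested members, 5 were higher (Pilra, Pilrb1, Pilrb2, Cd300e and Cd300ld) and 5 lower with lipids (Cd22, Cd200r4, Pira2, Cd300a and Sirpa). That is 34.5% of the members, where 11.3% of all tested genes were called, 4.52% as higher and 6.79% as lower. Members were chosen with earlier results of these data known, so these shares are set side by side only and were not tested. The median log2 fold change (with minus without lipids) was 0.04 over the members and -0.00 over all tested genes, and the median size of change was 0.26 and 0.14. Groups did not overlap for 18 members, against 30.5% of all tested genes. Scaled by library totals alone, 7 members were higher and 4 lower, while the median of all genes moved to 0.07. Changes in both directions were found among inhibitory and among activating receptors, with 1 higher and 3 lower of 10 inhibitory members and 3 higher and 2 lower of 12 activating members.

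**Figure D2:**
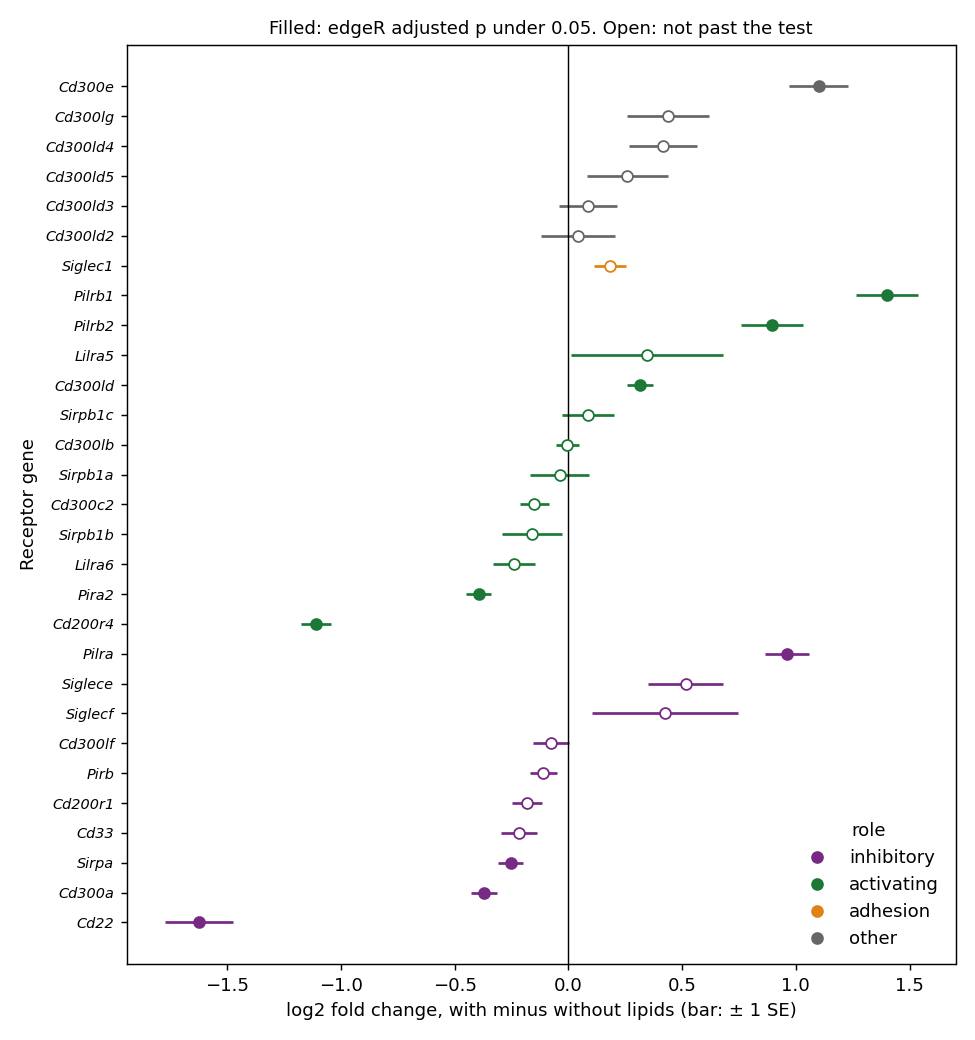
Log2 fold change of each tested receptor gene, with minus without lipids, with bars of 1 standard error, grouped by role. Filled points passed edgeR's test at an adjusted p of 0.05, and they fall on both sides of 0 among inhibitory and among activating receptors, from -1.62 for Cd22 to 1.40 for Pilrb1.

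Among inhibitory receptors, Cd22 had the largest difference. Its product is a Siglec that restrains the B cell receptor and binds sialic acids in alpha-2,6 linkage. Cd22 (chromosome 7, 30865402 to 30880342, minus strand) was at 1.85, 2.08 and 2.29 CPM with lipids and 5.63, 6.47 and 7.07 CPM without. All 3 libraries with lipids lay below all 3 without. The log2 fold change was -1.62 (SE 0.15, edgeR adjusted p = 7.45e-05), or 3.08-fold lower. In bulk RNA, fewer cells that express a gene and less transcript per cell cannot be told apart. Of the B cell markers, Pax5 and Blk had 0 counts in all 6 libraries, and 0 of the 3 that could be tested of 10 were called. The summed level of those 10 markers was 30.8 to 32.3 CPM with lipids and 18.7 to 34.8 CPM without, most of it from Ighm. At 41 to 154 counts per library Cd22 was a low transcript, and of the 6 other genes within 100 kb that could be tested, 0 passed. Mag among them, a Siglec of myelin, was at -0.43 (edgeR adjusted p = 0.25).

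Pilra was the inhibitory receptor that was higher with lipids. It encodes PILR alpha, which binds sialylated O-glycans and recruits SHP-1. Its libraries read 19.4, 17.0 and 17.4 CPM with lipids and 8.99, 9.33 and 9.23 CPM without, and the groups did not overlap. The difference was 0.96 log2 (SE 0.09, edgeR adjusted p = 0.000106), or 1.95-fold. Pilra (chromosome 5, 137821952 to 137836281, minus strand) shares 468 exonic bases with Zcwpw1 on the other strand, which was itself higher by 0.52 (SE 0.15, edgeR adjusted p = 0.0467). Zcwpw1 had 631 counts over the 6 libraries against 1789 for Pilra, and whether reads of one entered the other was not tested, since the strand setting of the counting is not given.

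Sirpa and Cd300a, both abundant, were lower by small amounts. Sirpa encodes SIRP alpha, the receptor for the CD47 signal that restrains phagocytosis. It read 3097, 3139 and 3142 CPM with lipids and 3585, 3828 and 3769 CPM without, with no overlap. The change was -0.25 log2 (SE 0.06, edgeR adjusted p = 0.014), but with library totals alone it did not pass (-0.18, edgeR adjusted p = 0.0551). Nor did it pass without replicate 1, 2 or 3 with lipids (adjusted p = 0.072, 0.0913 and 0.0852) or replicate 2 without (0.0627). Cd300a, a phosphatidylserine and phosphatidylethanolamine receptor with ITIMs, was at 219, 226 and 215 CPM with lipids and 278, 275 and 299 CPM without. Here too the groups were apart, by -0.37 log2 (SE 0.06, edgeR adjusted p = 0.00212).

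The remaining inhibitory members did not pass the test. Cd200r1, the receptor for CD200, averaged 178 ± 9.6 CPM (SD, n = 3, as for all such values) with lipids against 202 ± 13 CPM, or -0.18 on the log2 scale (SE 0.07, edgeR adjusted p = 0.11). Pirb, which binds MHC class I, read 742, 724 and 768 CPM with lipids and 768, 789 and 855 CPM without, or -0.11 (SE 0.06, edgeR adjusted p = 0.265). The nearest libraries of the media were almost level. Cd33, grouped here although the mouse protein lacks the typical inhibitory tail, was at -0.22 and Cd300lf, a receptor for ceramide and phosphatidylserine, at -0.08. Siglece, the main inhibitory Siglec of mouse neutrophils and macrophages, was at 3.48, 2.92 and 3.51 CPM with lipids and 2.21, 2.65 and 2.07 CPM without. Those libraries did not overlap, but the difference of 0.52 log2 (SE 0.16) had an edgeR adjusted p of 0.0691, which became 0.035 with library totals alone. Siglecf, known from eosinophils and alveolar macrophages, held only 7 to 19 counts per library and was at 0.42 (SE 0.32).

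Among activating receptors, both PILR beta genes were higher with lipids. Their products are the activating partners of PILR alpha and pair with DAP12. Pilrb1 (chromosome 5, 137852147 to 137858106, minus strand) was at 7.05, 6.65 and 6.69 CPM with lipids and 2.58, 2.92 and 2.25 CPM without. The libraries of the 2 media were far apart, by 1.40 log2 (SE 0.14, edgeR adjusted p = 0.000103), or 2.64-fold. Pilrb2 (chromosome 5, 137865827 to 137871815, minus strand) was at 7.37, 6.96 and 7.44 CPM with lipids and 3.998, 3.18 and 4.45 CPM without, again with no overlap. It was higher by 0.90 (SE 0.14, edgeR adjusted p = 0.00197). Of the 75-base windows of its longest coding transcript, 11.3% occur letter for letter in Pilrb1, so most but not all reads of that length could be assigned to one gene. Added together, which does not depend on how such reads were split, Pilrb1 and Pilrb2 reached 14.1 ± 0.41 CPM with lipids and 6.46 ± 0.32 CPM without, a ratio of 2.18.

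Cd200r4 had the lowest adjusted p of all members. It encodes an activating relative of the CD200 receptor that pairs with DAP12. Cd200r4 (chromosome 16, 44811733 to 44839150, plus strand) was at 35.2, 36.7 and 35.7 CPM with lipids and 79.8, 73.1 and 79.1 CPM without. Every library without lipids was at about the same level, well above the others. The change was -1.11 log2 (SE 0.07, edgeR adjusted p = 5.44e-06), or 2.16-fold lower. The 2 other activating genes of that family, Cd200r2 and Cd200r3, the latter known from mast cells and basophils, held 0 to 8 and 0 to 4 counts per library and were not tested. Among mast cell and basophil markers, Mcpt4, Cma1, Tpsb2, Ms4a2 and Fcer1a had 0 counts in all libraries. Kit, another gene of that list of 10, was lower with lipids at -2.03, and the list's summed level was 2.84 to 3.21 CPM with lipids and 9.87 to 11.2 CPM without. Kit made up most of that sum, at 2.39 and 9.81 CPM, and none of the other markers of the list had more than 8 counts in a library.

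Pira2 and Cd300ld moved less. Pira2, an activating partner of Pirb that signals through the Fc receptor gamma chain, was at 97.5, 98.2 and 103 CPM with lipids and 133, 131 and 130 CPM without. The groups were apart by -0.39 log2 (SE 0.06, edgeR adjusted p = 0.00124). However, 90.2% of the 75-base windows of Pira2 occur in other genes, above all in Gm15922, so its value may mix reads of several PIR genes and is uncertain. Cd300ld, also coupled to the Fc receptor gamma chain, was at 214, 215 and 208 CPM with lipids and 169, 165 and 178 CPM without. It was higher with lipids in every library, by 0.31 log2 (SE 0.06, edgeR adjusted p = 0.00477), with 2.3% of windows shared.

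The other 7 tested activating genes did not pass. Cd300lb, a DAP12-coupled receptor and one of the most abundant members, read 520, 513 and 497 CPM with lipids and 520, 502 and 513 CPM without. These overlapped fully, at -0.00 log2 (SE 0.05). Cd300c2, second in level per kilobase, read 279, 297 and 303 CPM with lipids and 307, 323 and 344 CPM without, close but not overlapping, or -0.15 (SE 0.06, edgeR adjusted p = 0.153). Lilra6, a PIR-A gene by its older name, was at -0.24 (SE 0.09). The 3 SIRP beta genes Sirpb1a, Sirpb1b and Sirpb1c were at -0.04, -0.16 and 0.09, with 33.0%, 58.3% and 45.5% of windows shared. Their sum was 21.4 ± 0.99 CPM with lipids and 21.6 ± 2.2 CPM without. Lilra5, at 7 to 18 counts per library, was at 0.35 (SE 0.33).

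**Figure D3:**
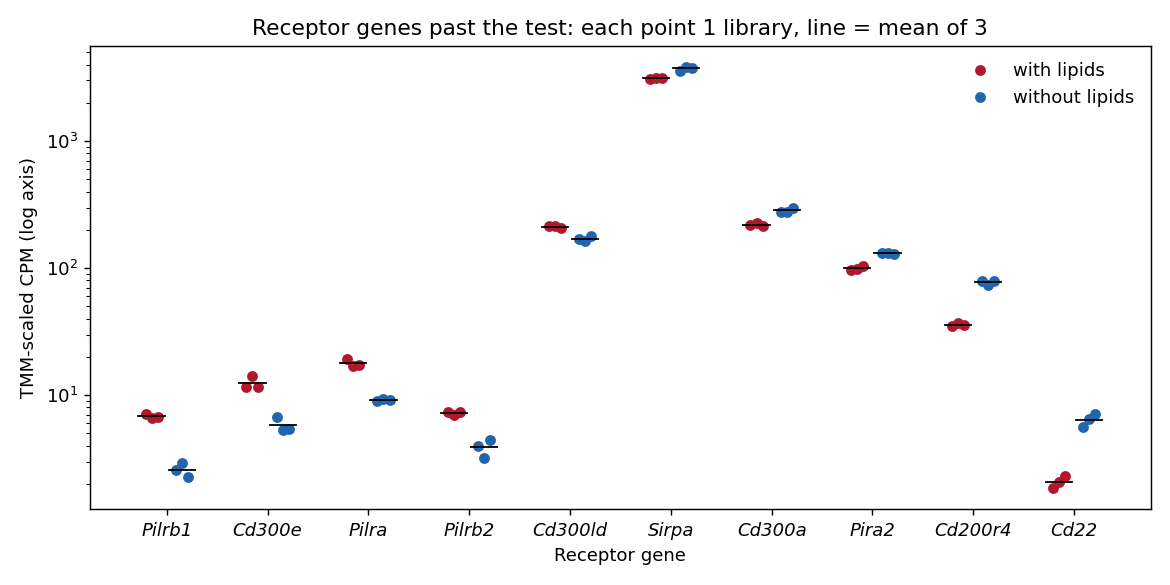
TMM-scaled CPM on a log axis for the 10 receptor genes past edgeR's test, with 1 point per library and a line at the mean of 3. For each of the 10 the points with lipids and those without do not overlap, a separation also seen in 30.5% of all tested genes.

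Of the 6 tested CD300 genes without a fixed role here, Cd300e changed. CD300e is an activating receptor of monocytes and macrophages that signals through DAP12, though the role list used here left it out of the activating tally above. Cd300e (chromosome 11, 115051917 to 115062177, minus strand) was at 11.7, 14.1 and 11.7 CPM with lipids and 6.73, 5.35 and 5.42 CPM without. The lowest library with lipids lay well above the highest without. The difference was 1.10 log2 (SE 0.13, edgeR adjusted p = 0.000345), or 2.15-fold, and 0.0% of its windows were shared with another gene. Cd300lg, an endothelial mucin-like receptor, was at 0.44 (SE 0.18, edgeR adjusted p = 0.146). Cd300ld2, Cd300ld3, Cd300ld4 and Cd300ld5 were at 0.04, 0.09, 0.42 and 0.26, all uncertain since 22.2% to 100.0% of their windows recur in another gene. Without replicate 1 with lipids, Cd300ld5 was at 0.05. Siglec1, the adhesion Siglec CD169, averaged 180 ± 11 CPM with lipids against 159 ± 11 CPM, or 0.18 (SE 0.07, edgeR adjusted p = 0.116), and passed with library totals alone (adjusted p = 0.0292).

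The members under the filter were Cd200r2, Cd200r3, Cd300c, Siglecg, Siglech and Siglec15, all with at most 8 counts in any library. Siglech, a marker of plasmacytoid dendritic cells and microglia, had 0 to 2 counts, and Siglec15, known from osteoclasts, 0 to 3. Siglecg, a Siglec of B-1 cells, had 1 to 6. Just inside the filter stood Lilra5, with 10 or more counts in 4 libraries, and Siglecf, in 5.

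Position within the gene clusters was then described. In the PILR cluster all 3 receptor genes were higher with lipids. So was Zcwpw1, which is not a receptor of this kind and overlaps Pilra, at 0.52 (edgeR adjusted p = 0.0467). The 4 genes tested to the left of Zcwpw1 within 100 kb lay between -0.46 and 0.05 and did not pass. No gene to the right within 100 kb had enough counts to be tested. In the CD300 cluster on chromosome 11, neighbours differed in direction, with Cd300a lower at one end, Cd300ld and Cd300e higher in the middle, and Cd300lb and Cd300lf at -0.00 and -0.08. Beyond its right end, Nat9 and Tmem104, which are not receptors of this kind, were lower at -0.52 and -0.44. In the CD200R cluster Cd200r4 was at -1.11 and its neighbour Cd200r1 at -0.18, and Nepro and Gtpbp8 to the left were at 0.05 and 0.01.

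**Figure D4:**
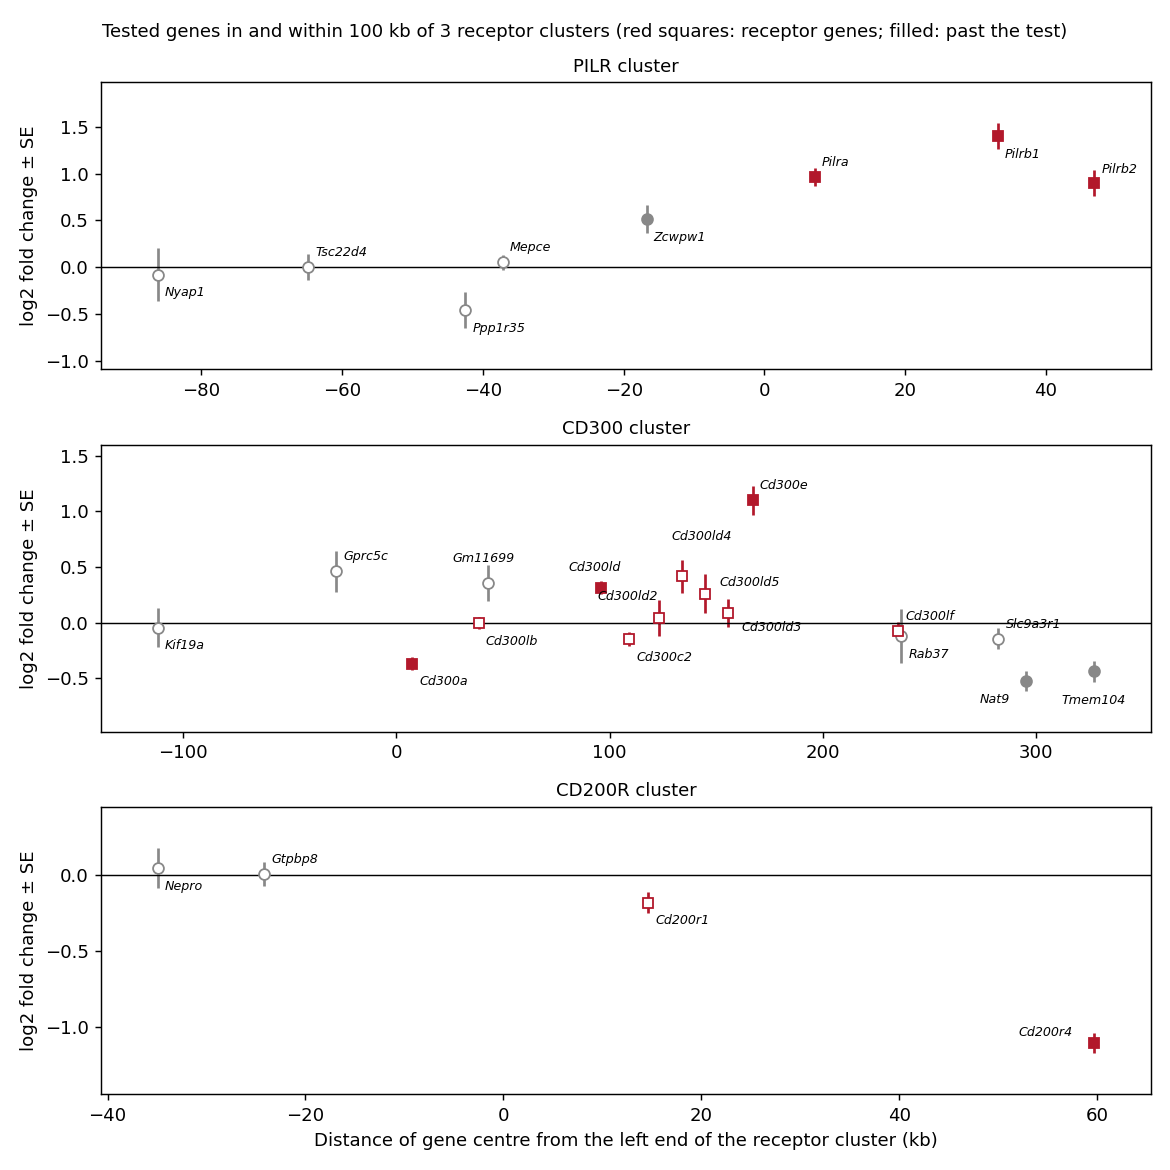
Log2 fold change with SE of every tested gene in and within 100 kb of the PILR, CD300 and CD200R clusters, against the distance of its centre from the cluster's left end in kb. Receptor genes are red squares and filled symbols passed the test. All 3 PILR genes lie between 0.90 and 1.40, CD300 genes between -0.37 and 1.10.

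The balance within pairs was measured as the log2 ratio of inhibitory to activating CPM, with 0.5 CPM added to each, in each library. The 10 pairs were compared by an exact two-sided permutation test, which cannot go below p = 0.1 with 3 against 3, and the smallest adjusted p was 0.167. None could therefore pass. The largest difference was in Cd200r1 to Cd200r4, with ratios of 2.24, 2.28 and 2.37 with lipids and 1.41, 1.36 and 1.37 without, a shift of 0.92 towards the inhibitory gene (exact p = 0.1). Pirb to Pira2 moved the same way by 0.28 (exact p = 0.1). This ratio is uncertain, since 30.1% of the 75-base windows of Pirb and 90.2% of those of Pira2 occur in other genes. Pilra to Pilrb1 was at 1.39, 1.29 and 1.32 with lipids and 1.63, 1.53 and 1.82 without, a shift of -0.33 towards the activating gene (exact p = 0.1). Both genes are low, and the shift depended on the CPM added, at -0.42 with 0.1 and -0.11 with 2. Pilra to Pilrb2 overlapped between media, with a shift of 0.09 (exact p = 0.5), or 0.05 and 0.17 with 0.1 and 2 CPM added. Cd300lf to Cd300ld, Sirpa to Sirpb1c and Cd300a to Cd300c2 shifted by -0.39, -0.34 and -0.22 (exact p = 0.1 each). With 45.5% of Sirpb1c windows shared, its ratio is uncertain too. Ratios did not overlap for 6 of the 10 pairs, several of which share a gene. Single genes did not overlap in 30.5% of cases, but no such share was computed for ratios of other genes. Every pair except Cd300lf to Cd300lb holds a called member, so these separations are not independent of the single-gene results.

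**Figure D5:**
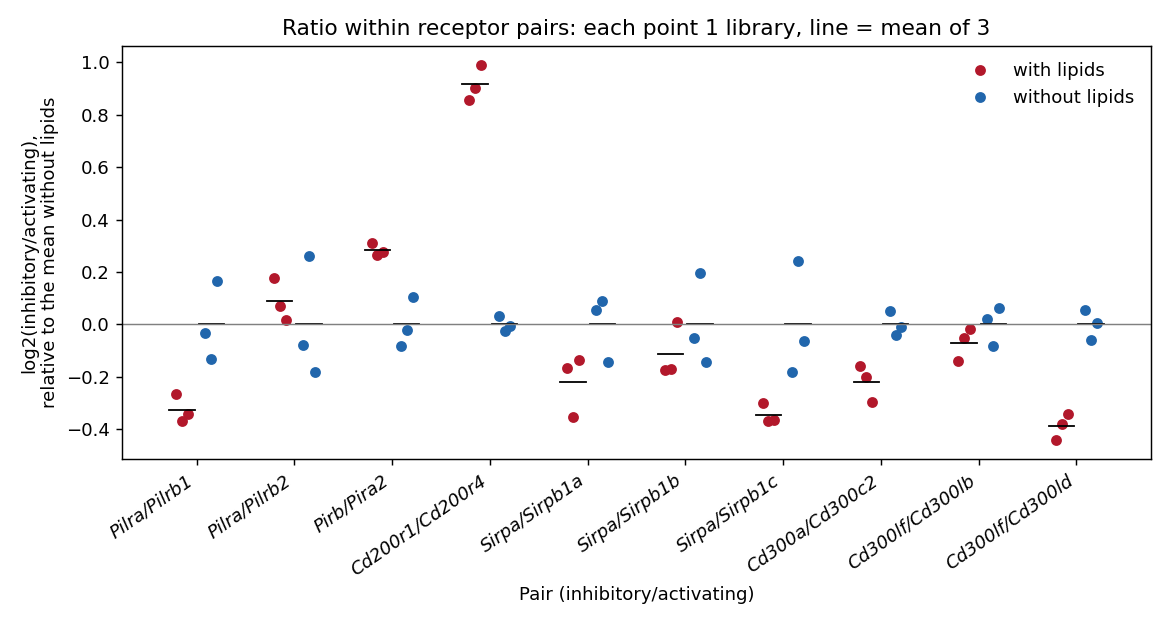
Log2 ratio of inhibitory to activating receptor in each library for 10 pairs, drawn relative to that pair's mean without lipids, with a line at the mean of 3 libraries. Cd200r1/Cd200r4 lies 0.92 above 0 with lipids, and Cd300lf/Cd300ld lies 0.39 below.

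Genes that act with these receptors were taken from a list by function. Of 67 tested genes 7 were higher and 19 lower with lipids (median -0.09), where 4.52% of all tested genes were higher and 6.79% lower. That list, too, was chosen with earlier results of these data known, so its shares were not tested against the rest. When the processing was varied, genes of this list were not followed one by one, as the members were. Of the adaptors, Tyrobp, which encodes DAP12, averaged 1043 ± 37 CPM with lipids against 1224 ± 92 CPM, lower at -0.23 log2 (SE 0.07, edgeR adjusted p = 0.0472), while Fcer1g and Hcst were at -0.14 and -0.23 and did not pass. Of 13 kinases and proximal signalling genes, Syk at -0.23, Src at -0.76, Fgr at -0.60, Lat2 at -0.59 and Blnk at -0.26 were lower, and Lyn, the kinase that phosphorylates ITIMs, was higher at 0.27. Syk and Blnk lay near the threshold (edgeR adjusted p = 0.0255 and 0.0379). Of 12 phosphatases and inhibitory effectors, Inpp5d, which encodes SHIP-1, was higher at 0.24 and Dok2, an adaptor in CD200R1 signalling, at 0.50. Ptpn6 (SHP-1) at 0.03 and Ptpn11 (SHP-2) at -0.08 did not pass. Of the SIRP alpha partners, Ptk2b and Grb2 were lower at -0.21 and -0.24 (edgeR adjusted p = 0.0296 and 0.0412).

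Of 12 tested genes for ligands of these receptors, 6 were lower and 0 higher, beside the same 6.79% and 4.52% of all tested genes. These ligands belong to the list chosen with earlier results known, so the same limit holds. Which cells in the culture made these transcripts was not tested. Pianp, whose product is a ligand of PILR alpha, averaged 3.60 ± 0.33 CPM with lipids against 7.82 ± 0.94 CPM, or -1.12 log2 (SE 0.14, edgeR adjusted p = 0.000452). Angptl2, reported as a PIR-B ligand, was lower at -0.68, as were the MHC class I genes H2-D1 at -0.42, H2-K1 at -0.27 and B2m at -0.21. H2-K1 and B2m lay near the threshold (edgeR adjusted p = 0.0337 and 0.0408). Cd200 was lower at -1.26 (edgeR adjusted p = 0.046) but at only 0.45 ± 0.24 and 1.09 ± 0.27 CPM, and Cd47 at -0.09 did not pass. Of 17 sialic acid genes, St6gal1, which makes the alpha-2,6 linkage, was higher at 0.37 and St3gal6 at 0.86. St3gal1, St3gal2, St6galnac4 and the lysosomal sialidase Neu1 were lower at -0.36, -0.34, -0.52 and -0.32. For St3gal2 and Neu1 the edgeR adjusted p was 0.0425 and 0.0299. Among other DAP12-coupled receptors, Trem1, which amplifies inflammatory signals, was higher at 1.81 (SE 0.25, edgeR adjusted p = 0.000922). Its level was low, at 4.82 ± 1.1 CPM with lipids and 1.40 ± 0.41 CPM without. Treml2 was higher at 0.51 and Trem2, a lipid-binding receptor, was lower at -0.34 (edgeR adjusted p = 0.0391 and 0.0318). Csf1r, Clec5a and Treml4 were not called.

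Markers of other cell types were read beside these results. No T and NK cell or carcinoma marker had enough counts to be tested, and of 10 neutrophil markers 1 could be (Mmp8 at -0.19, not called). Ly6g, Cd3e, Krt8 and Krt18 had 0 counts in all libraries. Eosinophil markers Epx, Prg3, Ear1 and Ear6 were likewise at 0, although Ccr3, the 1 gene tested of that list, was higher at 1.01. Among 4 platelet genes tested, Ppbp and Pf4 were higher at 2.02 and 0.83, Vwf was lower at -1.24 and Gp1ba was not called. Among 4 monocyte genes tested, Ccr2 was higher at 0.72 and Spn, Nr4a1 and Treml4 were not called. The monocyte gene Ly6c2 had no more than 3 counts. Tcf4, the 1 plasmacytoid dendritic cell marker tested, was higher at 0.37. Clec10a, 1 of 3 tested for conventional dendritic cells, was higher at 0.48, and the others were not called. Among 6 stromal markers Col3a1 was lower at -0.50 and the others were not called, with only Acta2 positive, at 0.22. The part of these cell types in the receptor differences was not tested.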

How the data were processed

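For 6 libraries the authors deposited raw counts, by Ensembl gene, made from total RNA with a stranded mRNA kit per the labels' protocols. TopHat2 2.1.0, HTSeq, DESeq2 and GRCm38.p4 are named, without roles, in the submitters' processing notes. Strand setting and annotation release: not given in the sources used here. GENCODE M21 (GRCm38) matched 46091 of 46603 identifiers. Counts were tested in edgeR 4.0.16 (R 4.3.3) by the quasi-likelihood F test, with TMM scaling, a filter of 10 or more counts in at least 3 libraries and Benjamini-Hochberg adjustment over 12886 genes, two-sided at 0.05. CPM are TMM-scaled, SE come from the F statistic, and 3 counts equal 0.118 to 0.154 CPM. Tested on counts simulated for this contrast (12754 genes), the fit recovered 24%, 74%, 88% and 98% of 50 genes changed 1.25-, 1.5-, 2- and 4-fold, with 19 false calls among 161. That false share exceeded the threshold of 0.05, so calls with an adjusted p just under it are less certain. Fewer genes were changed in the simulation than were called in these data. No pair of replicates was alike within sampling noise, and each was treated as 1 sample. That spread does not show whether replicates came from separate mice or cultures. Every tested member is named, those past the test with each library's value. Members, roles and lists were chosen with earlier results of these data known, and motifs, shared windows and sums of copies after the values were seen. Alternatives were median-of-ratios scaling, library totals, filterByExpr, no filter, DESeq2 1.42.0, limma-voom 3.58.1, the replicate number as a block, an adjusted p of 0.01, other pseudocounts for pairs and each library left out.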

Additional observations from a re-analysis of the deposited data

How the results depend on the processing

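Of the 10 called members, 9 kept direction and call in the 13 alternatives that refit the test, and Sirpa kept its direction but lost its call in 5, with adjusted p between 0.000284 and 0.0913 over all alternatives. Counts of called members ran from 5 to 7 higher and from 4 to 7 lower. For members not called, 226 of 245 values kept direction and side of the threshold and 6 passed: Cd300c2 and Cd33 without replicate 1 of the group without lipids, Siglec1 without replicate 3 of that group or with library totals alone, and Siglece with library totals alone or without the filter. Among these members the direction turned 13 times, all at small log2 values. Cd300lb went to 0.0015 with median-of-ratios scaling, 0.0012 without the filter, 0.0015 with DESeq2 and 0.0726 with library totals alone, and ran from -0.0185 to 0.0153 with 1 library left out. Sirpb1a went to 0.0378 with library totals alone and ran from -0.122 to 0.0613 with 1 library left out. With 1 library left out Cd300ld2 ran from -0.0051 to 0.137, Cd300ld3 from -0.0543 to 0.200, Sirpb1c from -0.0109 to 0.153 and the Pilra to Pilrb2 ratio difference from -0.0027 to 0.219. The Pilra to Pilrb1 ratio difference moved from -0.33 to -0.42 and -0.11 with 0.1 and 2 CPM added. Cd300ld5 kept its direction but ran from 0.0483 to 0.386 with 1 library left out. The cause was not tested.

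Over all genes, 1240 were higher with library totals alone (596 lower), 1009 higher and 1243 lower without the filter, and 217 higher and 444 lower at an adjusted p of 0.01, where Sirpa was the member lost. Leaving out 1 library gave 218 to 1560 higher and 425 to 1966 lower, the largest counts without replicate 1 of the group without lipids, where members called were 5 higher and 7 lower. With the replicate block 715 genes were higher and 938 lower, and the members called were 5 and 5. Same-numbered libraries deviated together at r of -0.01, -0.08 and 0.16 across genes, and only the libraries numbered 3 correlated best with their own number. Values this weak cannot show whether equal numbers mark a shared animal or day. The main test used no pairing, since no source says what the numbers mark. Low counts limit Lilra5, Siglecf and the 6 untested members.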
